A study of Rattus norvegicus with 9 samples.

Results

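The genes described here encode the mitochondrial respiratory chain and its assembly factors. They were chosen by symbol: names that begin with Nduf, Uqcr, Atp5 or Cox followed by a digit, together with Sdha, Sdhb, Sdhc, Sdhd and Cyc1. Of 14217 rat genes that had a probe set of their own on the array, 96 matched. They comprised 34 subunits of complex I, 4 of complex II, 8 of complex III, 18 of complex IV, 15 of complex V, 16 assembly and accessory factors and 1 pseudogene. Ndufa4, Ndufa4l2 and Cox7a2l were counted with complex IV. A further 9 probe sets that carry a respiratory chain symbol together with another gene's symbol were not used here, which left cytochrome c (Cycs) unmeasured.

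Expression was measured on 9 Affymetrix arrays, 3 biological replicates of each of 3 cell preparations. The rESC-RPC2 were cells differentiated towards retinal progenitors from the rat embryonic stem cell line DA8-16, on the DA rat background, held as floating aggregates until day 14, then plated, and harvested at day 16. The rESC-RPC1 came from the same line but were plated for adherent culture at day 10, given N2 medium with serum from day 14 and likewise collected at day 16. Both were formed by quick aggregation in medium without fetal serum, with Matrigel and the Wnt inhibitor IWR-1e, and fetal bovine serum was added to both before plating. The P-RPC were primary retinal progenitor cells, taken from dissociated neural retina of postnatal day 1 SD rats and not cultured before RNA isolation. Both rESC-RPC groups came from 1 stem cell line, and rat strain, culture and cell source cannot be told apart in any comparison with P-RPC. The rESC-RPC2 were not switched to N2 medium before harvest. Day of plating and final medium therefore cannot be told apart between rESC-RPC2 and rESC-RPC1.

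The respiratory chain passes electrons from NADH and succinate to oxygen and uses the energy to pump protons across the inner mitochondrial membrane. Complex I (NADH dehydrogenase) and complex II (succinate dehydrogenase) feed electrons into ubiquinone, complex III (cytochrome bc1) and complex IV (cytochrome c oxidase) carry them to oxygen, and complex V (ATP synthase) makes ATP as protons flow back. Most subunits are encoded in the nucleus, the catalytic core of several complexes is encoded in mitochondrial DNA, and the neural retina is known as a tissue with a high demand for mitochondrial ATP.

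Most respiratory chain genes differed little among the 3 preparations, and those that differed were more often higher in the stem cell-derived cells. Of the 96 genes, 90 passed the filter on low signals (at least 3 of the 9 arrays at or above 123, the median signal over all probe sets and arrays). The genes that did not pass were Cox11, Cox6a2, Cox7b2, Cox8b, Ndufa4l2 and the pseudogene Cox6c-ps1. At an adjusted p under 0.05 in limma, 40 of the 90 were higher and 18 lower in rESC-RPC2 than P-RPC, against 30.3% and 32.9% of all 9956 genes tested. For rESC-RPC1 against P-RPC, 38 were higher and 18 lower, against 30% and 30.1% of all genes. Between rESC-RPC2 and rESC-RPC1, 16 were higher and 15 lower, against 21.2% and 27% of all genes. Where each array was instead centred on its own median, 40 genes were higher and 10 lower in rESC-RPC2 than P-RPC, and 32 were higher and 11 lower in rESC-RPC1 than P-RPC. The counts lower in rESC-RPC1 than P-RPC were 10 without P-RPC replicate 2 and 11 without P-RPC replicate 3. The 16 genes higher in rESC-RPC2 than rESC-RPC1 were 8 without rESC-RPC1 replicate 1, 8 without rESC-RPC1 replicate 2 and 8 without rESC-RPC2 replicate 3.

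The changes were small. Among the 90 genes, 68 lay within 0.5 of zero on the log2 scale for rESC-RPC2 against P-RPC, 81 for rESC-RPC1 against P-RPC and 85 for rESC-RPC2 against rESC-RPC1. In the same order of comparisons, 50.9%, 54.5% and 62.6% of all genes tested lay within that range. With a change of at least 2-fold also required, 2 of the 90 genes were higher (Ndufb8 and Ndufaf1) and 4 lower (Cox4i2, Cox6b2, Cox16 and Cox20) in rESC-RPC2 than P-RPC, against 10.7% and 13% of all genes. For rESC-RPC1 against P-RPC, 1 was higher (Ndufaf1) and 2 lower (Cox4i2 and Cox20), against 12% and 9.56% of all genes. For rESC-RPC2 against rESC-RPC1, 0 were higher and 2 lower (Cox6b2 and Cox4i2, the second with both groups under the threshold), against 5.02% and 9.25%. For 3 of these genes at least 1 group was under the threshold on all its arrays, so the fold was not measured: the bound was 2.32-fold for Cox4i2 and 1.52-fold for Cox20 in both comparisons with P-RPC, and for Ndufaf1 1.20-fold in rESC-RPC1 and none in rESC-RPC2. Cox4i2 and Cox20 exceeded the threshold on the 3 P-RPC arrays only, so leaving out any P-RPC array removed both by the filter. Ndufaf1 exceeded it on 1 rESC-RPC2 array and 2 rESC-RPC1 arrays only. Without P-RPC replicate 1, 2 or 3 in turn, the calls were 4, 4 and 3 for rESC-RPC2 against P-RPC, 1 each time for rESC-RPC1 against P-RPC, and 1 each time for rESC-RPC2 against rESC-RPC1.

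The probe sets of these genes were bright, with a median mean signal of 5232 and a median rank at percentile 95.1 of all genes tested, and 74 of the 90 (82.2%) lay above the upper quartile. Brightness depends on the probes as well as on the transcript, so the signals are not compared between genes. Bright probe sets also varied less, with a median within-group SD of 0.09 on the log2 scale for the respiratory chain genes and 0.17 for all genes. A comparison with genes of a mean log2 signal of 11 or more, chosen after seeing the data, left 71 respiratory chain genes, of which 0 were called at 2-fold in any of the 3 comparisons. Every respiratory chain gene called at 2-fold lay under this cut, so the 0 is a description and no test. Of all 1804 genes that bright, 11.9% were called for rESC-RPC2 against P-RPC, 10.9% for rESC-RPC1 against P-RPC and 5.65% for rESC-RPC2 against rESC-RPC1. The 2 sets were not matched for brightness above the cut.

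**Figure D1:**
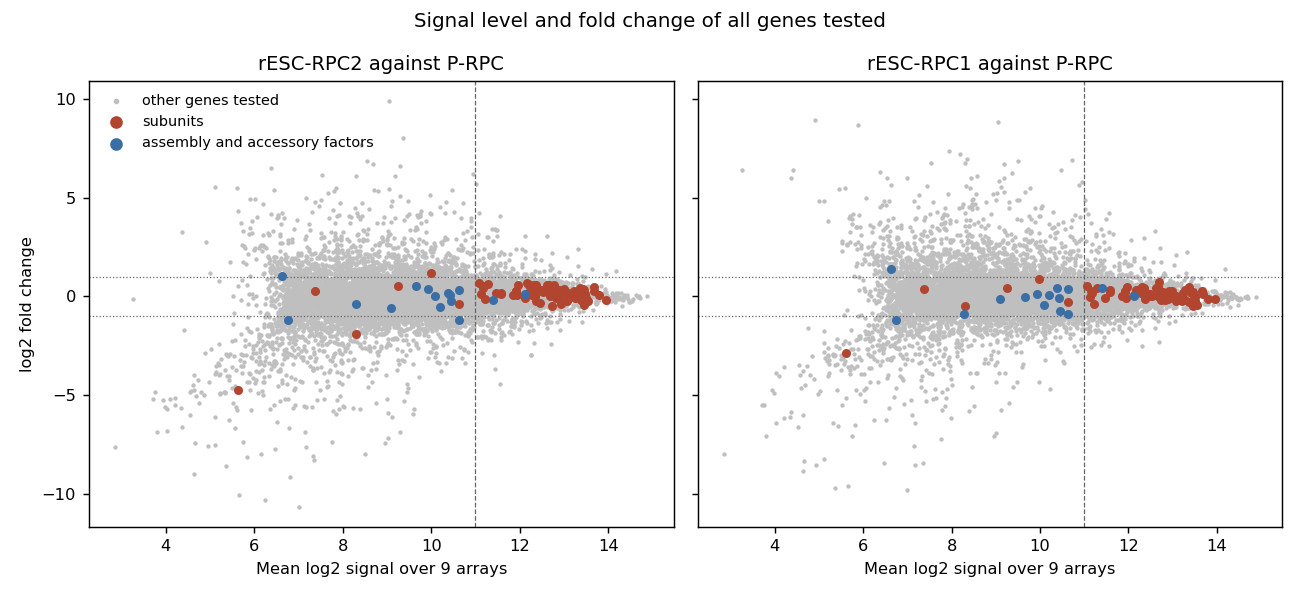
Mean log2 signal over the 9 arrays (horizontal axis) against log2 fold change (vertical axis) for every gene tested, for rESC-RPC2 against P-RPC (left) and rESC-RPC1 against P-RPC (right). Subunits are red, assembly and accessory factors blue and other genes grey. Dotted lines mark 2-fold, and the dashed line marks a log2 signal of 11, a cut chosen after seeing the data. All respiratory chain genes called at 2-fold lay under it, and 0 of the 71 above it were called.

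Over the 75 subunits that passed the filter, the median log2 fold change was 0.17 for rESC-RPC2 against P-RPC, 0.17 for rESC-RPC1 against P-RPC and 0.07 for rESC-RPC2 against rESC-RPC1. The medians of all genes tested were -0.02, -0.01 and -0.03. The median deviation of the subunits from the P-RPC mean was 0.24, 0.12 and 0.16 on the 3 rESC-RPC2 arrays, 0.14, 0.10 and 0.22 on the rESC-RPC1 arrays, and -0.03, 0.01 and 0.03 on the P-RPC arrays. All 6 arrays of stem cell-derived cells thus lay above the 3 P-RPC arrays, while the 2 stem cell-derived groups overlapped. Under quantile normalization the 3 medians were 0.13, 0.17 and 0.02.

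By complex, the median log2 fold changes for rESC-RPC2 against P-RPC were 0.21 for complex I, 0.18 for complex II, 0.15 for complex III, 0.07 for complex IV, 0.17 for complex V and 0.02 for the assembly and accessory factors. For rESC-RPC1 against P-RPC they were 0.17, 0.19, 0.27, 0.13, 0.14 and -0.01 in the same order of complexes. In complex IV, 6 subunits were higher and 6 lower in rESC-RPC2 than P-RPC. On the arrays of rESC-RPC2 its median deviation was 0.06, 0.03 and -0.05, which overlapped the P-RPC values of -0.05, 0.01 and 0.03.

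**Figure D2:**
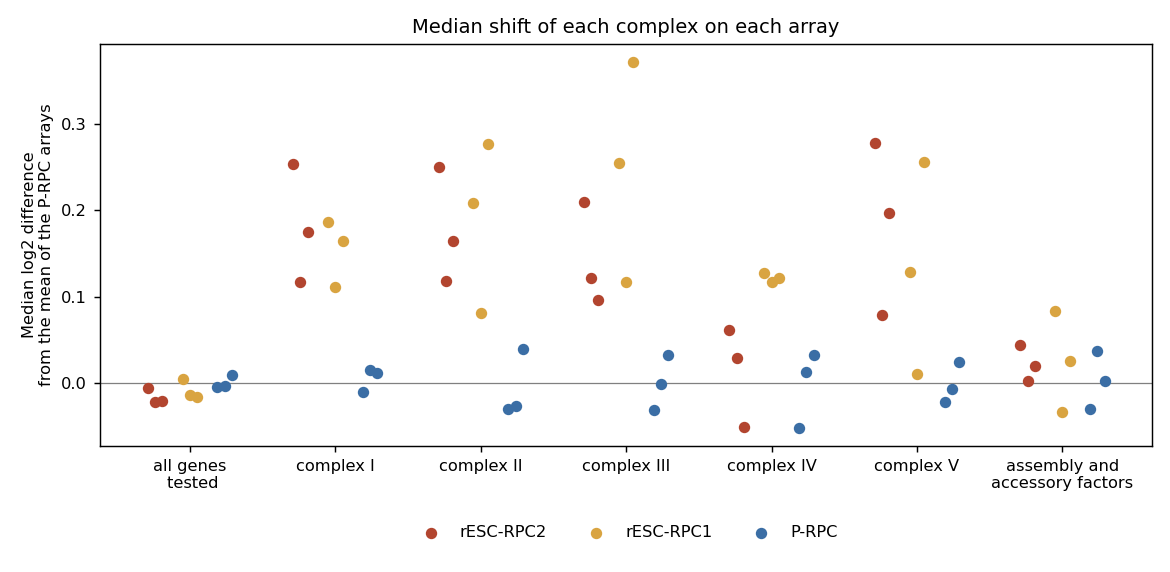
Median log2 difference from the mean of the P-RPC arrays (vertical axis) for all genes tested and for each class of respiratory chain gene, with 1 point per array in rESC-RPC2 (red), rESC-RPC1 (yellow) and P-RPC (blue). The rESC-RPC arrays lie above all P-RPC arrays for complexes I, II and III, whereas complex IV in rESC-RPC2, complex V in rESC-RPC1 and the assembly factors overlap P-RPC, and all genes together stay between -0.02 and 0.01.

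The 90 genes fell into patterns across the 2 comparisons with P-RPC, which share the P-RPC arrays. In these, 29 genes were higher in both rESC-RPC groups, 10 were lower in both, and 16 passed the test in neither. Another 11 passed as higher in rESC-RPC2 with rESC-RPC1 not passing, of which 3 were also higher in rESC-RPC2 than rESC-RPC1 by the direct test, and 7 passed as lower in rESC-RPC2 with rESC-RPC1 not passing, of which 5 were lower by the direct test. Of 8 genes that passed as higher in rESC-RPC1 with rESC-RPC2 not passing, 3 were lower in rESC-RPC2 than rESC-RPC1, and of 8 that passed as lower in rESC-RPC1, 4 were higher in rESC-RPC2. For the other genes of these patterns a difference between the rESC-RPC groups was not shown. Ndufb4 was the 1 gene called in opposite directions.

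The promoters of nuclear respiratory chain genes are textbook sites of nuclear respiratory factor 1 (NRF1) and of the ETS family factor GABP, and the letters of both sites were searched on both strands from 250 bases before to 50 bases after the start of each gene in RefSeq (rat assembly GRCr8). Of the 96 genes, 86 had an entry. The NRF1 letters GCGCATGCG stood in 8 of the 86 (9.3%) and in 1.66% of all 27457 promoters of the table, and the ETS letters CCGGAAG in 25 (29.1%) and in 9.22% of all promoters. Neither motif contains the other, and 31 of the 86 (36%) held at least 1 of them, as did 10.5% of all promoters. Among the genes higher in both rESC-RPC groups, 1 of 26 (3.85%) held the NRF1 letters and 10 of 26 (38.5%) the ETS letters. Among the other genes tested, the NRF1 letters stood in 7 of 56 (12.5%) and the ETS letters in 15 of 56 (26.8%). The stretches before the start of 4 genes that rose in both groups are printed here with matches in capitals. They were picked as examples with and without the letters and do not stand for the shares of the 26 genes. Atp5me, the 1 gene of the 26 with NRF1 letters, holds them overlapping on both strands from 76 and 75 bases before the start. It also holds ETS letters from 11 bases before the start. Ndufa13 holds ETS letters from 126 and 9 bases before the start and Cox5b from 14 bases before it. Ndufb8, the subunit with the largest rise, holds neither.
Atp5me, chr14:1464610-1464859, plus strand: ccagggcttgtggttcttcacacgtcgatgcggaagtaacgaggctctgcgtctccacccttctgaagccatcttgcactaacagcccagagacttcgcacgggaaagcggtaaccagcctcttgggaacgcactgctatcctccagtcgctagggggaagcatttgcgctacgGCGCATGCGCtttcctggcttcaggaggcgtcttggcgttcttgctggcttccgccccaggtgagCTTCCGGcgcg
Ndufa13, chr16:19560276-19560525, plus strand: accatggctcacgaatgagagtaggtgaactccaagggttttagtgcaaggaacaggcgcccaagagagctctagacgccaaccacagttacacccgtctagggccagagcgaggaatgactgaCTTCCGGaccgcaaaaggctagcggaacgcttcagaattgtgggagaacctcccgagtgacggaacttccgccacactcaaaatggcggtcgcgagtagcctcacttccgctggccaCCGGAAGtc
Cox5b, chr9:46417587-46417836, plus strand: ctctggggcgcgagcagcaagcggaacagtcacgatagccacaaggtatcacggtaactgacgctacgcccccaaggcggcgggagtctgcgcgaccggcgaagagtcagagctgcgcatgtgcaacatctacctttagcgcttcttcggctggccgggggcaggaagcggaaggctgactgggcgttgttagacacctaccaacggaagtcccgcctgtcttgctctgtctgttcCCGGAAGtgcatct
Ndufb8, chr1:253362937-253363186, minus strand: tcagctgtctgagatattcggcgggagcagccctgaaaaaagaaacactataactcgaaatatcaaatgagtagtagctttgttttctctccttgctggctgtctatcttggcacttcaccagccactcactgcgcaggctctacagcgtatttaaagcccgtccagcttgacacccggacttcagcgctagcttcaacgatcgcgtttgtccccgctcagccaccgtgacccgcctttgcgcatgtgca
A match of letters is a description of the sequence and no evidence of binding.

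In complex I, all 34 subunits on the array passed the filter. For rESC-RPC2 against P-RPC, 17 were higher, 5 lower and 12 did not pass the test, and for rESC-RPC1 against P-RPC, 16 were higher, 5 lower and 13 did not pass. Ndufb8, an accessory subunit of the membrane arm, gave signals of 1582, 1532 and 1247 in rESC-RPC2, 1125, 1144 and 1179 in rESC-RPC1, and 587, 603 and 690.0 in P-RPC. The 3 groups did not overlap, and the signal was highest in rESC-RPC2. The log2 fold change was 1.21 ± 0.11 (SE, adjusted p = 6.2e-06) for rESC-RPC2 against P-RPC, 0.88 ± 0.11 (SE, adjusted p = 6.5e-05) for rESC-RPC1 against P-RPC, and 0.33 ± 0.11 (SE, adjusted p = 0.029) for rESC-RPC2 against rESC-RPC1. The call between the rESC-RPC groups was lost with the replicate block (adjusted p = 0.050) and without replicate 1 or 2 of either rESC-RPC group (adjusted p = 0.052 to 0.098).

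Ndufs1, the large iron-sulfur core subunit that takes part in NADH oxidation, gave 2673, 2521 and 2588 in rESC-RPC2, 2222, 2075 and 2887 in rESC-RPC1, and 1855, 1663 and 1369 in P-RPC. Every array of both rESC-RPC groups exceeded every P-RPC array, while rESC-RPC1 spanned the rESC-RPC2 values. The log2 fold change was 0.68 ± 0.14 (SE, adjusted p = 0.0014) in rESC-RPC2 and 0.55 ± 0.14 (SE, adjusted p = 0.0054) for rESC-RPC1 against P-RPC. Ndufa8, an accessory subunit facing the intermembrane space, gave 5768, 5675 and 5864 in rESC-RPC2, 4388, 4465 and 4818 in rESC-RPC1, and 3741, 3507 and 3701 in P-RPC. Its 3 groups did not overlap, and the log2 fold change was 0.66 ± 0.06 (SE, adjusted p = 8.3e-06) for rESC-RPC2 against P-RPC, 0.32 ± 0.06 (SE, adjusted p = 0.0013) for rESC-RPC1 against P-RPC and 0.34 ± 0.06 (SE, adjusted p = 0.0013) for rESC-RPC2 against rESC-RPC1. Ndufab1, the mitochondrial acyl carrier protein, had log2 fold changes of 0.59 (adjusted p = 2.5e-04) in rESC-RPC2 and 0.30 (adjusted p = 0.015) in rESC-RPC1. The iron-sulfur core subunit Ndufs8 had 0.44 (adjusted p = 0.0012) and 0.28 (adjusted p = 0.016) in the same comparisons.

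Among the accessory subunits that fell, Ndufa6 gave 5502, 6068 and 5557 in rESC-RPC2, 7283, 7056 and 6511 in rESC-RPC1, and 7765, 8191 and 7639.8 in P-RPC. Signals were lowest in rESC-RPC2 and highest in P-RPC with no overlap, and the log2 fold change was -0.46 ± 0.07 (SE, adjusted p = 1.6e-04) in rESC-RPC2 and -0.18 ± 0.07 (SE, adjusted p = 0.038) for rESC-RPC1 against P-RPC. Ndufa2 gave 5151, 4645 and 4780.2 in rESC-RPC2, 6229.8, 5995 and 6342 in rESC-RPC1, and 6022, 6215 and 5941 in P-RPC. It was lower in rESC-RPC2 than in both other groups, at -0.32 ± 0.06 (SE, adjusted p = 0.001) against P-RPC and -0.35 ± 0.06 (SE, adjusted p = 9.5e-04) against rESC-RPC1 on the log2 scale, and the rESC-RPC1 and P-RPC arrays overlapped. Ndufb4, another accessory subunit, gave 9278, 9571 and 9119.6 in rESC-RPC2, 13415, 12349 and 11624 in rESC-RPC1, and 11483, 11410.2 and 10269 in P-RPC. It was lowest in rESC-RPC2 and highest in rESC-RPC1, with log2 fold changes of -0.24 ± 0.07 (SE, adjusted p = 0.009) for rESC-RPC2 against P-RPC, 0.17 ± 0.07 (SE, adjusted p = 0.047) for rESC-RPC1 against P-RPC, and -0.42 ± 0.07 (SE, adjusted p = 5.9e-04) for rESC-RPC2 against rESC-RPC1.

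Ndufa7 was measured by 2 probe sets that disagreed for rESC-RPC1 against P-RPC. The brighter, used here, had a log2 fold change of 0.29 ± 0.08 (SE, adjusted p = 0.01), and the other had -0.74. Without P-RPC replicate 1 the adjusted p of the brighter was 0.051. For rESC-RPC2 against rESC-RPC1, in the limma fit of every probe set, the brighter had -0.02 (adjusted p = 0.85) and the other 1.19 (adjusted p = 1.6e-05). Neither the direction for this gene in rESC-RPC1 nor a difference between the rESC-RPC groups is therefore settled by the array.

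**Figure D3:**
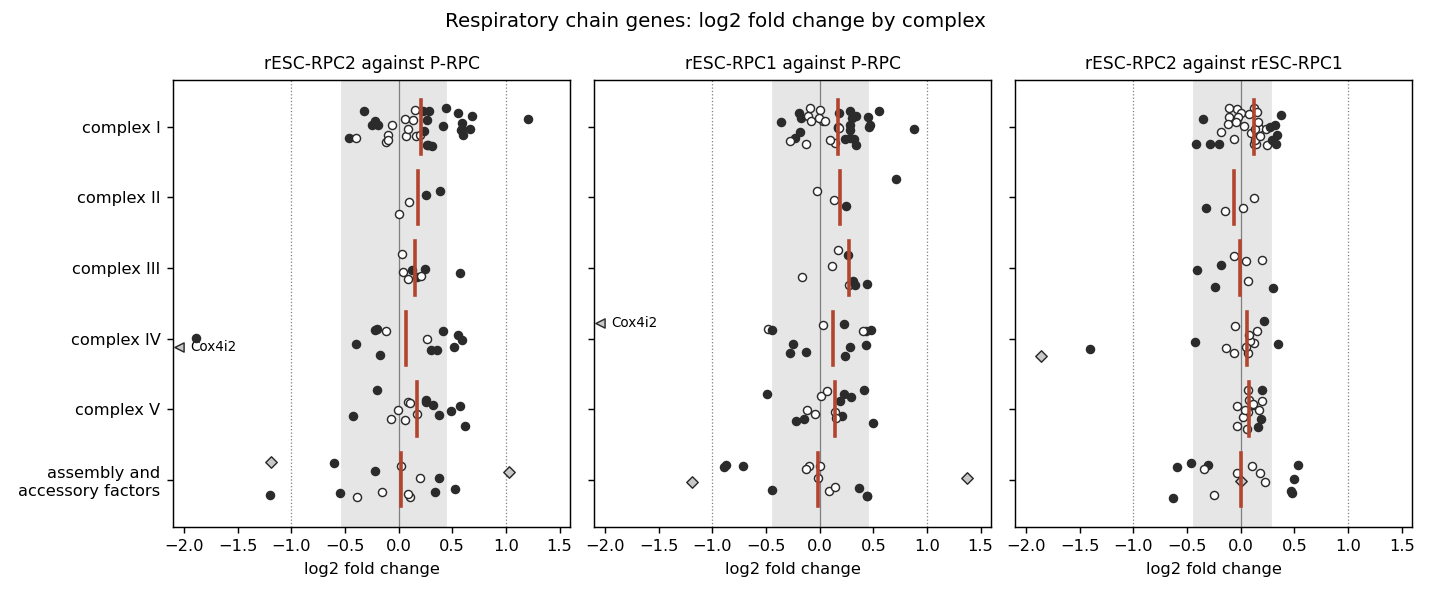
log2 fold change (horizontal axis) of each respiratory chain gene tested, by complex, for rESC-RPC2 against P-RPC, rESC-RPC1 against P-RPC and rESC-RPC2 against rESC-RPC1, with vertical scatter for legibility only. Black points have an adjusted p under 0.05, white points do not, grey diamonds and triangles are genes with at least 1 of the compared groups under the threshold on all its arrays, whose place gives no measured fold (Cox4i2, Cox20 and Ndufaf1), red bars are medians, the grey band holds the middle 50% of all genes tested, and dotted lines mark 2-fold. Most points fall within the grey band, and complex IV and the assembly factors hold all the genes below -1.

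In complex II, 2 of 4 subunits were higher and 0 lower in each comparison with P-RPC. Sdhc, a membrane anchor that carries the heme with Sdhd, gave 7366, 6544 and 6309 in rESC-RPC2, 8624, 7743 and 8851 in rESC-RPC1, and 5029, 4815 and 5587 in P-RPC. The groups did not overlap, and here rESC-RPC1 was the highest. The log2 fold change was 0.39 ± 0.08 (SE, adjusted p = 0.0022) in rESC-RPC2 and 0.71 ± 0.08 (SE, adjusted p = 4.6e-05) for rESC-RPC1 against P-RPC, and -0.32 ± 0.08 (SE, adjusted p = 0.0099) for rESC-RPC2 against rESC-RPC1, the last lost under median centring (adjusted p = 0.083). Sdhd, the other anchor, had log2 fold changes of 0.25 (adjusted p = 0.008) in rESC-RPC2 and 0.13 (adjusted p = 0.11) for rESC-RPC1 against P-RPC. A dimmer probe set of Sdhd passed in both, at 0.28 (adjusted p = 0.031) and 0.26 (adjusted p = 0.042) in the limma fit of every probe set. Sdha, the flavoprotein that oxidises succinate, had 0.10 (adjusted p = 0.26) and 0.24 (adjusted p = 0.016) in the same comparisons, the second lost without P-RPC replicate 2 (adjusted p = 0.061) or rESC-RPC1 replicate 1 (adjusted p = 0.053). Sdhb, the iron-sulfur subunit, had 0.00 (adjusted p = 0.997) and -0.02 (adjusted p = 0.82), and its arrays overlapped in all groups.

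In complex III, 4 of 8 subunits were higher and 0 lower in each comparison with P-RPC. Cyc1, the cytochrome c1 heme protein that hands electrons to cytochrome c, gave 7306, 5794 and 6288 in rESC-RPC2, 5088, 4589 and 6084 in rESC-RPC1, and 4199, 4258 and 4517 in P-RPC. Both rESC-RPC groups lay above P-RPC on all arrays and overlapped each other. The log2 fold change was 0.57 ± 0.11 (SE, adjusted p = 0.0011) for rESC-RPC2 against P-RPC and 0.27 ± 0.11 (SE, adjusted p = 0.055) for rESC-RPC1 against P-RPC, where it did not pass. Between rESC-RPC2 and rESC-RPC1 it was 0.30 ± 0.11 (SE, adjusted p = 0.044), a call lost without any 1 P-RPC array, without replicate 1 or 2 of rESC-RPC1 and without replicate 1 or 3 of rESC-RPC2 (adjusted p = 0.059 to 0.15). Uqcr11, a small accessory subunit, gave 4908, 4636 and 4803 in rESC-RPC2, 6099, 6534 and 6407 in rESC-RPC1, and 4661, 4564 and 4764 in P-RPC. Only rESC-RPC1 stood apart, with log2 fold changes of 0.04 ± 0.06 (SE, adjusted p = 0.6) for rESC-RPC2 against P-RPC, 0.44 ± 0.06 (SE, adjusted p = 8.9e-05) for rESC-RPC1 against P-RPC and -0.41 ± 0.06 (SE, adjusted p = 2.7e-04) for rESC-RPC2 against rESC-RPC1. Uqcr10 and the hinge protein Uqcrh were also lower in rESC-RPC2 than rESC-RPC1, at -0.24 (adjusted p = 0.01) and -0.19 (adjusted p = 0.013) on the log2 scale. The core proteins Uqcrc1 and Uqcrc2 had 0.24 (adjusted p = 0.034) and 0.17 (adjusted p = 0.024) for rESC-RPC2 against P-RPC, and 0.07 (adjusted p = 0.53) and 0.05 (adjusted p = 0.48) for rESC-RPC2 against rESC-RPC1. The Rieske iron-sulfur protein Uqcrfs1 had 0.21 (adjusted p = 0.083) in rESC-RPC2 and 0.27 (adjusted p = 0.033) for rESC-RPC1 against P-RPC, and -0.06 (adjusted p = 0.63) for rESC-RPC2 against rESC-RPC1.

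In complex IV, 14 of 18 genes passed the filter. For rESC-RPC2 against P-RPC, 6 were higher, 6 lower and 2 did not pass the test, and for rESC-RPC1 against P-RPC, 6 were higher, 5 lower and 3 did not pass. Cox4i1, the widely expressed isoform of subunit 4, gave 7683, 7283 and 7038 in rESC-RPC2, 6344, 6315 and 7638 in rESC-RPC1, and 4719.6, 5158 and 5082 in P-RPC. All 6 rESC-RPC arrays exceeded the P-RPC arrays, and the log2 fold change was 0.56 ± 0.08 (SE, adjusted p = 1.9e-04) in rESC-RPC2 and 0.44 ± 0.08 (SE, adjusted p = 0.001) for rESC-RPC1 against P-RPC. Cox4i2, the alternative isoform known from lung and from cells at low oxygen, gave 8.64, 5.32 and 27.1 in rESC-RPC2, 40.4, 36.4 and 40.9 in rESC-RPC1, and 274, 261 and 321 in P-RPC. It exceeded the threshold of 123 on the P-RPC arrays alone. It was therefore at least 2.32-fold lower in both rESC-RPC groups than in P-RPC (adjusted p = 3.0e-05 in rESC-RPC2 and 0.0010 in rESC-RPC1). The gene passed the filter through the P-RPC arrays alone, so these p-values are no independent support, and since both rESC-RPC groups were under the threshold no fold is given between them. In bulk RNA, fewer cells of a type and less RNA per cell cannot be told apart.

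Cox6b1, the widely expressed isoform of subunit 6b, gave 8882, 9398 and 8711 in rESC-RPC2, 8329, 8496 and 8862 in rESC-RPC1, and 6577, 7303 and 7202 in P-RPC. Both rESC-RPC groups lay above P-RPC, with log2 fold changes of 0.36 ± 0.06 (SE, adjusted p = 5.1e-04) in rESC-RPC2 and 0.29 ± 0.06 (SE, adjusted p = 0.0023) in rESC-RPC1. Cox6b2, the isoform known from testis, gave 129, 164 and 149.9 in rESC-RPC2, 499, 414 and 283 in rESC-RPC1, and 435, 656 and 562 in P-RPC. It was lowest on all rESC-RPC2 arrays, while rESC-RPC1 and P-RPC overlapped. The log2 fold change was -1.89 ± 0.22 (SE, adjusted p = 3.5e-05) for rESC-RPC2 against P-RPC, -1.40 ± 0.22 (SE, adjusted p = 4.9e-04) for rESC-RPC2 against rESC-RPC1 and -0.48 ± 0.22 (SE, adjusted p = 0.08) for rESC-RPC1 against P-RPC, where it did not pass.

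For subunit 8, Cox8a gave 11869, 11150.5 and 11351 in rESC-RPC2, 11944, 11261 and 12606 in rESC-RPC1, and 8556, 8458 and 8733 in P-RPC. Its log2 fold change was 0.42 ± 0.06 (SE, adjusted p = 1.0e-04) in rESC-RPC2 and 0.47 ± 0.06 (SE, adjusted p = 4.6e-05) for rESC-RPC1 against P-RPC with no overlap with P-RPC, and its heart and muscle partner Cox8b was under the threshold on all 9 arrays. For subunit 6a, Cox6a1 had 0.31 (adjusted p = 0.0024) in rESC-RPC2 and 0.23 (adjusted p = 0.013) in rESC-RPC1 (lost without P-RPC replicate 1, adjusted p = 0.054), and the muscle isoform Cox6a2 exceeded the threshold on 1 array of rESC-RPC1. The muscle isoform Cox7a1 had 0.27 (adjusted p = 0.31) in rESC-RPC2 and 0.40 (adjusted p = 0.14) for rESC-RPC1 against P-RPC. Cox7a2l, which takes part in joining complexes III and IV, gave 7069.9, 6659.9 and 5875 in rESC-RPC2, 8912, 9013 and 8326 in rESC-RPC1, and 8967, 8962 and 7856 in P-RPC. It was lower in rESC-RPC2 than in both other groups, at -0.40 ± 0.08 (SE, adjusted p = 0.0017) against P-RPC and -0.42 ± 0.08 (SE, adjusted p = 0.0017) against rESC-RPC1.

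Cox5b, a zinc-binding structural subunit, gave 9052, 8291 and 8883 in rESC-RPC2, 6683, 6513 and 7378 in rESC-RPC1, and 5855, 5784 and 5817 in P-RPC. The groups did not overlap, and the log2 fold change was 0.59 ± 0.06 (SE, adjusted p = 2.3e-05) for rESC-RPC2 against P-RPC, 0.23 ± 0.06 (SE, adjusted p = 0.0091) for rESC-RPC1 against P-RPC and 0.35 ± 0.06 (SE, adjusted p = 0.0012) for rESC-RPC2 against rESC-RPC1. Several small subunits went the other way. Cox6c, the respiratory chain gene with the brightest probe set, gave 14564, 14642 and 15806 in rESC-RPC2, 15376, 15813 and 15426 in rESC-RPC1, and 16867, 16739 and 17276 in P-RPC. P-RPC lay above both rESC-RPC groups, with log2 fold changes of -0.18 (adjusted p = 0.0083) in rESC-RPC2 and -0.13 (adjusted p = 0.043) in rESC-RPC1, both lost when arrays were centred on their medians (adjusted p = 0.28 and 0.27). The call in rESC-RPC1 was also lost with the replicate block (adjusted p = 0.054) and without any 1 array of rESC-RPC1 or P-RPC (adjusted p = 0.054 to 0.12). Cox7b had -0.22 (adjusted p = 0.011) in rESC-RPC2 and -0.44 (adjusted p = 1.9e-04) in rESC-RPC1, and Cox7c had -0.20 (adjusted p = 0.0094) and -0.25 (adjusted p = 0.0031). Ndufa4, first counted with complex I and now placed in complex IV, had -0.12 (adjusted p = 0.11) in rESC-RPC2 and -0.27 (adjusted p = 0.0029) in rESC-RPC1, and its relative Ndufa4l2 was under the threshold on all 9 arrays.

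**Figure D4:**
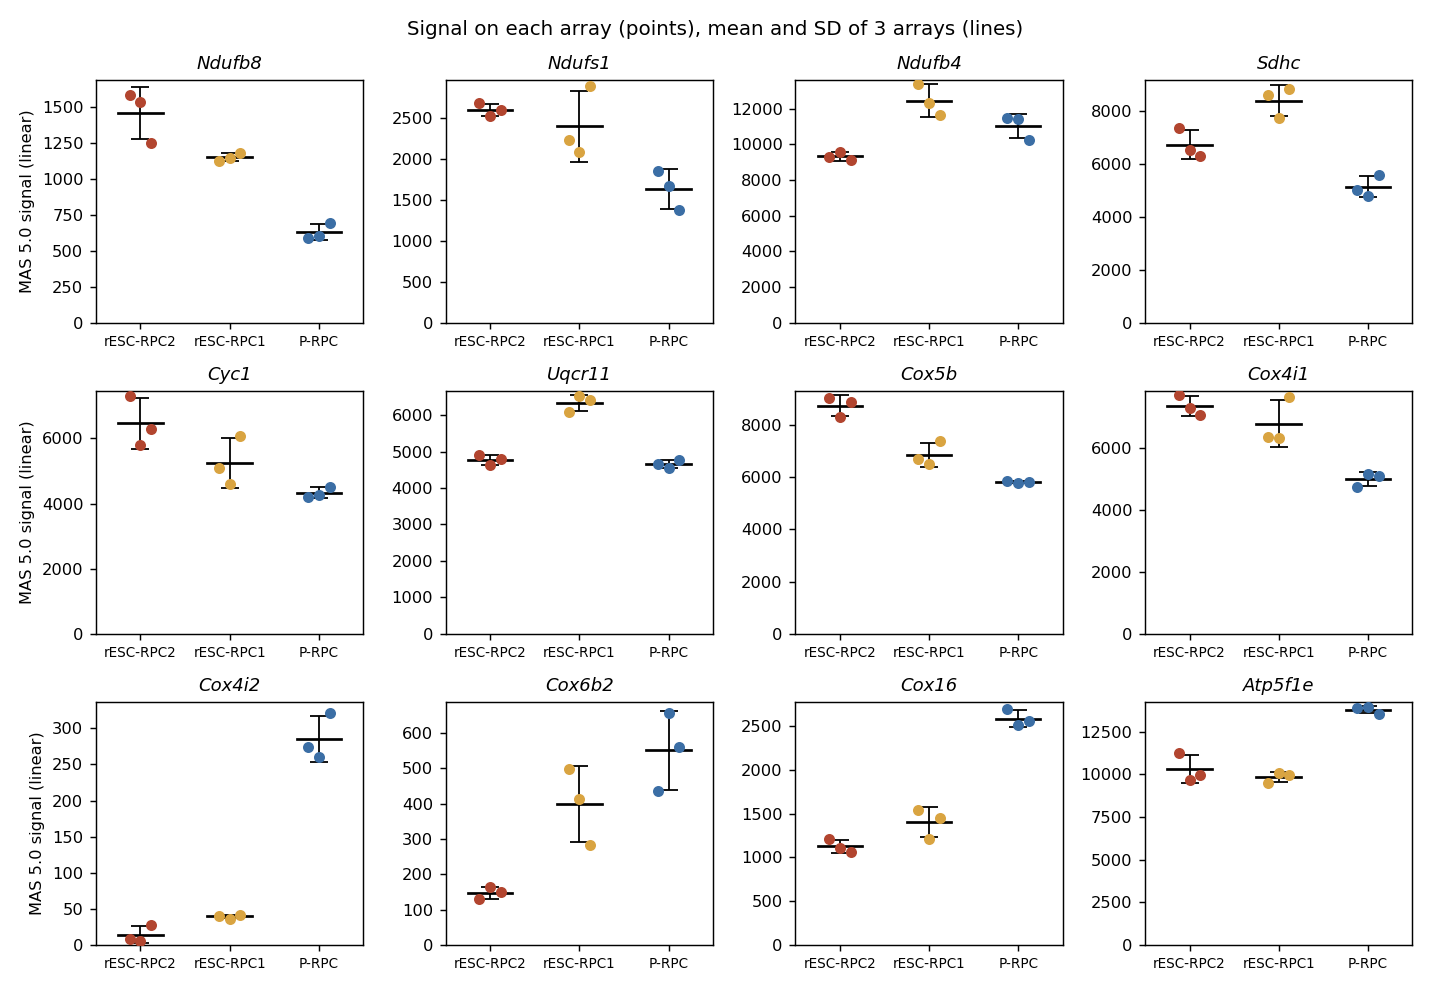
MAS 5.0 signal (vertical axis, linear, from 0) of 12 respiratory chain genes on each array of rESC-RPC2 (red), rESC-RPC1 (yellow) and P-RPC (blue), with the mean and SD of 3 arrays as lines. Ndufb8, Ndufs1, Sdhc, Cyc1, Cox5b and Cox4i1 are lowest in P-RPC, Cox4i2, Cox6b2, Cox16 and Atp5f1e have their highest mean there, and Ndufb4 and Uqcr11 are highest in rESC-RPC1.

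In complex V, all 15 subunits passed the filter, with 7 higher, 2 lower and 6 not passing for rESC-RPC2 against P-RPC, and 6 higher, 3 lower and 6 not passing for rESC-RPC1 against P-RPC. Between rESC-RPC2 and rESC-RPC1, 3 were higher and 0 lower. Atp5mc3, an isoform of the rotating c subunit, gave 16154, 14226 and 15471 in rESC-RPC2, 13222, 12655 and 14213 in rESC-RPC1, and 10495, 10854 and 11394 in P-RPC. The groups did not overlap, and the log2 fold change was 0.48 ± 0.07 (SE, adjusted p = 1.0e-04) in rESC-RPC2 and 0.29 ± 0.07 (SE, adjusted p = 0.0031) for rESC-RPC1 against P-RPC. Atp5me, the membrane subunit e, gave 2969, 2537 and 3596 in rESC-RPC2, 2333, 2545 and 3004 in rESC-RPC1, and 2032, 1861 and 1995 in P-RPC. Every rESC-RPC array exceeded the P-RPC arrays, with log2 fold changes of 0.61 ± 0.13 (SE, adjusted p = 0.002) in rESC-RPC2 and 0.41 ± 0.13 (SE, adjusted p = 0.018) in rESC-RPC1. Of the central stalk subunits, gamma and delta were higher and epsilon lower in both rESC-RPC groups than in P-RPC. The gamma subunit Atp5f1c had 0.38 (adjusted p = 2.5e-04) in rESC-RPC2 and 0.22 (adjusted p = 0.0076) for rESC-RPC1 against P-RPC. The delta subunit Atp5f1d had 0.57 (adjusted p = 0.0014) in rESC-RPC2 and 0.50 (adjusted p = 0.0034) for rESC-RPC1 against P-RPC. The epsilon subunit Atp5f1e gave 11272, 9696 and 9972 in rESC-RPC2, 9525, 10062 and 9977 in rESC-RPC1, and 13921, 13942 and 13562 in P-RPC. P-RPC lay above both rESC-RPC groups, with log2 fold changes of -0.42 ± 0.06 (SE, adjusted p = 1.9e-04) in rESC-RPC2 and -0.49 ± 0.06 (SE, adjusted p = 8.0e-05) in rESC-RPC1. The catalytic beta subunit Atp5f1b had 0.26 (adjusted p = 0.027) in rESC-RPC2 and 0.14 (adjusted p = 0.19) in rESC-RPC1, and the alpha subunit Atp5f1a had 0.17 (adjusted p = 0.055) and 0.21 (adjusted p = 0.03).

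Of 16 assembly and accessory factors, 15 passed the filter. For rESC-RPC2 against P-RPC, 4 were higher, 5 lower and 6 did not pass, and the counts for rESC-RPC1 against P-RPC were the same, close to the shares of all genes (30.3% higher and 32.9% lower in rESC-RPC2, and 30% and 30.1% in rESC-RPC1). Their absolute log2 fold changes had a median of 0.37 in rESC-RPC2 and 0.44 for rESC-RPC1 against P-RPC, and those of the subunits 0.26 and 0.23. Cox16, which takes part in maturation of the copper-carrying subunit of complex IV in human cells, gave 1211, 1107 and 1064 in rESC-RPC2, 1540.0, 1208 and 1455 in rESC-RPC1, and 2694, 2509 and 2557 in P-RPC. P-RPC lay above both rESC-RPC groups, and the log2 fold change was -1.20 ± 0.10 (SE, adjusted p = 3.9e-06) in rESC-RPC2 and -0.89 ± 0.10 (SE, adjusted p = 3.5e-05) in rESC-RPC1. Cox20, which acts on the same subunit, gave 60.7, 85.5 and 107 in rESC-RPC2, 95, 77.8 and 74 in rESC-RPC1, and 173, 183 and 206 in P-RPC. Both rESC-RPC groups were under the threshold on all arrays, so that Cox20 was at least 1.52-fold lower in each (adjusted p = 0.0017 in rESC-RPC2 and 0.0018 in rESC-RPC1). Like Cox4i2, it passed the filter through the P-RPC arrays alone, and its p-values are no independent support. Ndufaf1, a complex I assembly factor, gave 141, 95.2 and 116 in rESC-RPC2, 139, 120.0 and 192 in rESC-RPC1, and 64.8, 64.1 and 44.1 in P-RPC. The P-RPC arrays were all under the threshold, as were 2 of the 3 rESC-RPC2 arrays and 1 of the 3 rESC-RPC1 arrays. In rESC-RPC1 the gene exceeded P-RPC at least 1.20-fold (adjusted p = 0.0014), and no bound can be set for rESC-RPC2 (adjusted p = 0.0073). Ndufaf1 passed the filter through rESC-RPC arrays alone, so these p-values are no independent support. With signals under the threshold raised to it, the adjusted p was 0.72 in rESC-RPC2 and 0.14 in rESC-RPC1.

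The enzymes of heme A synthesis, which supplies complex IV, differed between the rESC-RPC groups. Cox10, which makes heme O, gave 281, 344 and 339.6 in rESC-RPC2, 186, 226 and 287 in rESC-RPC1, and 387, 449 and 425 in P-RPC. Both rESC-RPC groups lay below P-RPC and overlapped each other, and the log2 fold change was -0.39 ± 0.17 (SE, adjusted p = 0.063) for rESC-RPC2 against P-RPC, where it did not pass, and -0.87 ± 0.17 (SE, adjusted p = 0.0011) for rESC-RPC1 against P-RPC, and the difference between rESC-RPC2 and rESC-RPC1 was 0.48 ± 0.17 (SE, adjusted p = 0.035). That difference was lost without P-RPC replicate 3, without replicate 1 or 2 of rESC-RPC1, and without replicate 2 or 3 of rESC-RPC2 (adjusted p = 0.050 to 0.13). Cox15, which turns heme O into heme A, gave 858, 988 and 850.2 in rESC-RPC2, 1397, 1448 and 1329 in rESC-RPC1, and 1334, 1395 and 1196 in P-RPC. Here rESC-RPC2 was the lowest, at -0.54 ± 0.10 (SE, adjusted p = 6.2e-04) against P-RPC and -0.63 ± 0.10 (SE, adjusted p = 3.9e-04) against rESC-RPC1. Cox14, which is tied to synthesis of the largest subunit of complex IV, was higher in rESC-RPC1 than P-RPC, at 0.44 (adjusted p = 9.0e-04), and lower in rESC-RPC2 than rESC-RPC1, at -0.60 (adjusted p = 2.0e-04), on the log2 scale. Among complex I assembly factors, Ndufaf4 gave 1485, 1518 and 1471 in rESC-RPC2, 993, 1061 and 1118 in rESC-RPC1, and 1671, 1844 and 1689 in P-RPC. It was lowest on the rESC-RPC1 arrays with no overlap, at -0.71 ± 0.08 (SE, adjusted p = 3.3e-05) against P-RPC, and at 0.50 ± 0.08 (SE, adjusted p = 6.1e-04) for rESC-RPC2 against rESC-RPC1. For rESC-RPC2 against P-RPC it had -0.22 (adjusted p = 0.037), which was lost with the replicate block (adjusted p = 0.051) and without any 1 of the P-RPC or rESC-RPC2 arrays (adjusted p = 0.058 to 0.14). Ndufaf5 and Ndufaf8, which act as a pair in human cells, were both higher in rESC-RPC2 than rESC-RPC1, by 0.54 (adjusted p = 0.005) and 0.47 (adjusted p = 0.014) on the log2 scale. Against P-RPC they differed in unlike groups. Ndufaf5 had 0.52 (adjusted p = 0.0038) in rESC-RPC2 and -0.01 (adjusted p = 0.95) in rESC-RPC1. Ndufaf8 had 0.02 (adjusted p = 0.88) in rESC-RPC2 and -0.44 (adjusted p = 0.014) in rESC-RPC1. Both Ndufaf8 calls were lost without rESC-RPC1 replicate 1 (adjusted p = 0.056 each), and that against P-RPC also without P-RPC replicate 2 or 3 (adjusted p = 0.058 each).

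Other mitochondrial genes were counted from lists written with earlier results of these data known. The 2 subunits encoded in mitochondrial DNA on the array, COX1 and COX2, passed in 0 of the 3 comparisons, with signals of 28829, 24777 and 28170.1 in rESC-RPC2, 25002, 25209.5 and 26032 in rESC-RPC1, and 25652, 26076 and 28318 in P-RPC for COX1. The same held for COX2, which gave 29474, 30020.5 and 32933 in rESC-RPC2, 29829, 29696 and 28592 in rESC-RPC1, and 29816, 30476 and 30902 in P-RPC. The arrays of all 3 groups overlapped for COX1 and for COX2.

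Of 17 regulators of mitochondrial biogenesis, 3 were higher and 10 lower in rESC-RPC2 than P-RPC, and 2 were higher and 10 lower in rESC-RPC1 than P-RPC, with medians of -0.40 and -0.46 on the log2 scale. Of all genes, 30.3% were higher and 32.9% lower in rESC-RPC2, and 30% higher and 30.1% lower in rESC-RPC1. Of the 75 subunits, 36 were higher and 13 lower in rESC-RPC2, and 34 higher and 13 lower in rESC-RPC1, and the difference between the lists was not tested. Nrf1, which encodes the factor whose letters were searched in the promoters, gave 326, 306 and 331 in rESC-RPC2, 341, 341 and 309 in rESC-RPC1, and 647, 619 and 634 in P-RPC. Both rESC-RPC groups lay below P-RPC without overlap, with log2 fold changes of -0.98 ± 0.10 (SE, adjusted p = 1.4e-05) in rESC-RPC2 and -0.94 ± 0.10 (SE, adjusted p = 2.1e-05) in rESC-RPC1. Gabpa, the DNA-binding subunit of GABP, had -0.62 (adjusted p = 7.5e-04) and -0.47 (adjusted p = 0.0044). Tfam, which packages and transcribes mitochondrial DNA, had -0.75 (adjusted p = 3.5e-06) in rESC-RPC2 and -0.58 (adjusted p = 2.2e-05) in rESC-RPC1. Ppargc1a, a coactivator of biogenesis, gave 555, 757 and 680.0 in rESC-RPC2, 129.6, 216 and 144 in rESC-RPC1, and 139, 141 and 130.1 in P-RPC. It stood apart in rESC-RPC2 only, at 2.27 ± 0.20 (SE, adjusted p = 5.1e-06) against P-RPC and 2.05 ± 0.20 (SE, adjusted p = 2.5e-05) against rESC-RPC1.

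The lists that follow are read against the same shares of all genes, 30.3% higher and 32.9% lower in rESC-RPC2 and 30% higher and 30.1% lower in rESC-RPC1. Of 20 genes of the tricarboxylic acid cycle and pyruvate entry, 9 were higher and 3 lower in rESC-RPC2, and 10 were higher and 1 lower in rESC-RPC1, each against P-RPC. Citrate synthase (Cs) had 0.76 (adjusted p = 1.0e-05) in rESC-RPC2 and 0.56 (adjusted p = 9.1e-05) in rESC-RPC1, and malate dehydrogenase (Mdh2) had 0.84 (adjusted p = 4.9e-05) and 0.73 (adjusted p = 1.5e-04). The list also holds the pyruvate dehydrogenase kinases, which inhibit entry of pyruvate. Of these, Pdk4 exceeded its P-RPC level at least 4.58-fold in rESC-RPC1 (adjusted p = 1.5e-06), and Pdk2 lay at least 2.87-fold below P-RPC in rESC-RPC2 (adjusted p = 6.1e-05). Pdk4 was under the threshold on all P-RPC arrays and Pdk2 on all rESC-RPC2 arrays. Each passed the filter without any array of that group, so these p-values are no independent support. Of 10 membrane carriers, 8 were higher and 1 lower in rESC-RPC2, and 6 were higher and 0 lower in rESC-RPC1. Slc25a4, an ADP/ATP carrier that exchanges the product of complex V, gave 15535, 13478 and 15514 in rESC-RPC2, 12465, 11453 and 13351 in rESC-RPC1, and 7063, 6868 and 7617 in P-RPC. Its groups did not overlap, with log2 fold changes of 1.05 ± 0.08 (SE, adjusted p = 1.6e-06) in rESC-RPC2 and 0.79 ± 0.08 (SE, adjusted p = 1.3e-05) for rESC-RPC1 against P-RPC. Of 16 import and chaperone genes, 8 were higher and 2 lower in rESC-RPC2, and 5 were higher and 5 lower in rESC-RPC1. Of 24 further assembly factors, 5 were higher and 4 lower in rESC-RPC2, and 9 were higher and 1 lower in rESC-RPC1. Mitochondrial ribosomal proteins had 22 of 73 higher and 16 lower in rESC-RPC2, and 23 higher and 13 lower in rESC-RPC1, and the share higher was near that of all genes (30.3% in rESC-RPC2 and 30% in rESC-RPC1). Cytosolic ribosomal proteins had 3 of 51 higher and 17 lower in rESC-RPC2, and 7 higher and 11 lower in rESC-RPC1.

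**Figure D5:**
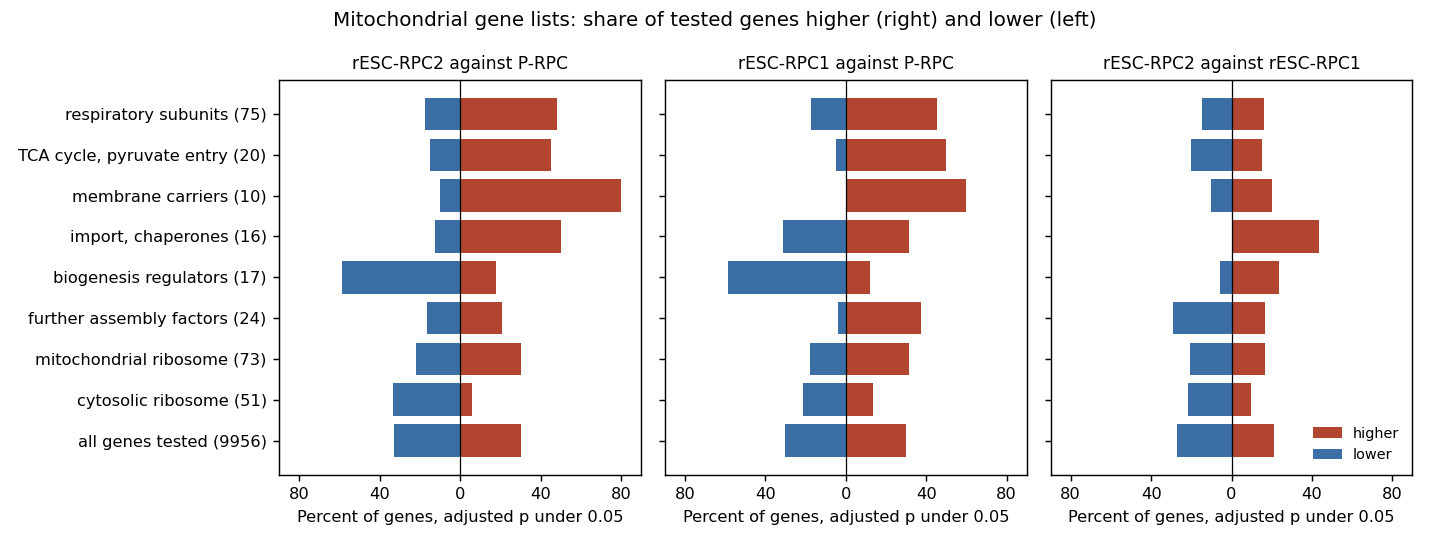
Percent of the tested genes of each list (number of genes in brackets) with an adjusted p under 0.05, higher to the right in red and lower to the left in blue, for rESC-RPC2 against P-RPC, rESC-RPC1 against P-RPC and rESC-RPC2 against rESC-RPC1. Respiratory chain subunits, carriers, the tricarboxylic acid cycle, the mitochondrial ribosome and further assembly factors have more genes higher than lower in both comparisons with P-RPC. In rESC-RPC2, 30.3% of all genes were higher. The mitochondrial ribosome lies near that share (22 of 73 higher, 16 lower) and further assembly factors lie under it (5 of 24 higher, 4 lower). Biogenesis regulators have 10 of 17 lower in both.

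Some features of the preparations moved with these comparisons, and their part in the results was not tested. The signal ratio of the 3-prime to the 5-prime probe sets of beta-actin, a measure of RNA integrity and labelling, was 4.0 to 5.36 in rESC-RPC2, 6.07 to 10.2 in rESC-RPC1 and 8.88 to 9.95 in P-RPC, while that of GAPDH was 1.12 to 1.20 over all arrays. The summed signal of 8 neuron markers was 48865 to 53439.6 in rESC-RPC2, 19622 to 27349 in rESC-RPC1 and 24310.0 to 29131 in P-RPC. That of 7 retinal progenitor markers was 11434 to 12357 in rESC-RPC2, 11618 to 14985 in rESC-RPC1 and 66039.6 to 71153 in P-RPC, with Six3 under the threshold in all groups and Pax6 in rESC-RPC2. The 6 proliferation markers summed to 11858 to 14488 in rESC-RPC2, 14794 to 17462 in rESC-RPC1 and 29121 to 30719 in P-RPC. Mesenchymal and smooth muscle markers (9 genes) summed to 11837 to 21429.5 in rESC-RPC2, 18294 to 46885 in rESC-RPC1 and 865 to 988 in P-RPC. P-RPC also held photoreceptor markers (20591 to 22336 over 8 genes, under the threshold for all 8 in rESC-RPC2), hemoglobin (Hbb) and lens markers. Of the photoreceptor markers, Gnat1 and Rcvrn were under the threshold in P-RPC. The 3 erythrocyte markers summed to 17.6 to 20.6 in rESC-RPC2, 29.5 to 66.9 in rESC-RPC1 and 14044 to 15213 in P-RPC. Alas2 and Ahsp were under the threshold in all groups, so the P-RPC sum was carried by Hbb alone. The 7 lens markers summed to 127 to 228 in rESC-RPC2, 132 to 209.7 in rESC-RPC1 and 1656 to 93918 in P-RPC, highest in replicate 1. Without P-RPC replicate 1, 33 respiratory chain genes were higher and 14 lower in rESC-RPC2 than P-RPC, and 27 were higher and 13 lower in rESC-RPC1 than P-RPC. The 8 astrocyte and radial glia markers summed to 9669 to 15779.6 in rESC-RPC2, 11661 to 26206 in rESC-RPC1 and 8968 to 11382 in P-RPC, the 8 microglia and macrophage markers to 254 to 274, 151 to 261 and 1089 to 1269, and the 7 skeletal and cardiac muscle markers to 685 to 934, 339 to 590.5 and 342 to 566. Of the glia markers, Gfap, Slc1a2, Aqp4, Aldh1l1 and S100b were under the threshold in P-RPC. Slc1a2 and Aldh1l1 were under it in all groups, and S100b also in rESC-RPC2. A sum is led by its brightest genes and does not stand for every marker of its list. Correlation of log2 signals was 0.952 to 0.988 between arrays of a group and 0.738 to 0.909 between groups.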

How the data were processed

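Expression was measured on 9 Affymetrix rat arrays, 3 for each of rESC-RPC2, rESC-RPC1 and P-RPC. The authors deposited 1 intensity per probe set on a linear scale, MAS 5.0 signals whose trimmed mean (2% off each end) was 500.2 on every array. The version of MAS5 and a genome build are not given in the sources used here. Probe sets were named from the platform annotation: 20826 had 1 gene symbol, 436 had several and 9780 had none, and 57 control probe sets were left out. For each gene the probe set with the highest mean was used. Signals under 1 were set to 1, log2 was taken, and genes at or above 122.57, the median of all values, on at least 3 arrays were tested, 9956 in all. limma 3.58.1 in R 4.3.3 (lmFit, eBayes with a variance trend) was fitted to all 9 arrays with 3 group means and no covariate, and p-values were adjusted by Benjamini-Hochberg over all genes tested. The 2-fold calls needed an adjusted p under 0.05 and a log2 change of at least 1. "At least" folds set the brighter group's mean against the threshold, or the dimmer group's own signal where higher. The number of arrays limits the precision.

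The genes named were those called at 2-fold, the 4 largest rises and falls per comparison, isoforms with tissue-specific expression and their partners, complex II, Cyc1, the genes of highest and lowest signal and those whose probe sets disagree. Ndufa2, Ndufa6, Ndufa13, Ndufab1, Ndufb4, Ndufs8, the Uqcr genes, Cox5b, Cox7b, Cox7c, Atp5me and the Atp5f1 genes were named after their values were seen. The members and lists were chosen with earlier results of these data known. Replicate numbers do not pair the arrays by the labels. Alternatives covered scaling, floor, filter, probe sets, variance model, test, arrays left out and a replicate block. Tested on simulated data for rESC-RPC1 against P-RPC (9956 genes), the fit recovered 68% of changes of 0.75 and 93% of changes of 1.5 on the log2 scale, with 7 of 9756 unchanged genes called. The simulation changed 100 genes at each size, far fewer than passed in the data, and no change under 0.75. Its rates therefore do not carry over to the counts given here. Promoters were taken from RefSeq (GRCr8). Tables were handled with Python 3.11.15, numpy 2.4.6 and pandas 2.3.3.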

Additional observations from a re-analysis of the deposited data

Results flagged for a closer look

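Ndufb4, an accessory subunit of complex I, was called in opposite directions against P-RPC in the stem cell-derived groups. The call in rESC-RPC1 lay close to the cut of 0.05, with a lowest rESC-RPC1 signal of 11624 and a highest P-RPC signal of 11483. This gene was not recomputed under the alternatives, so that direction is not firm. Its log2 fold change was -0.24 for rESC-RPC2 against P-RPC (adjusted p = 0.0090) and 0.17 for rESC-RPC1 against P-RPC (adjusted p = 0.047), and the test of the difference itself, rESC-RPC2 against rESC-RPC1, gave -0.42 (limma, adjusted p = 5.9e-04).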

How the results depend on the processing

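The count of respiratory chain genes called at 2-fold for rESC-RPC2 against P-RPC, 6, was 3 where all 9 arrays had to reach the threshold, 3 for subunits only, and 3 to 6 when each array was left out in turn. For rESC-RPC1 against P-RPC, 3 were called, against 6 with no filter, 0 with all 9 arrays over the threshold, 1 with signals raised to the threshold, 1 for subunits only and 1 to 3 with an array left out. For rESC-RPC2 against rESC-RPC1, 2 were called, and 1 with all 9 arrays over the threshold, with signals raised to it, with a pseudocount of 32, with only the 6 arrays compared, and by the methods' t-test at the unadjusted threshold or after Benjamini-Hochberg (1 to 2 with an array left out). Median centring gave 10 in place of 18 genes lower in rESC-RPC2 than P-RPC, 11 in place of 18 lower in rESC-RPC1 than P-RPC (10 to 18 with an array left out), and a subunit median of 0.26 in place of 0.17 for rESC-RPC2 against P-RPC. The 16 genes higher in rESC-RPC2 than rESC-RPC1 were 10 without a variance trend, 10 with only the 6 arrays compared, 7 by the t-test after Benjamini-Hochberg and 8 to 23 with an array left out. With the mean of its probe sets, Ndufa7 reversed to -0.23 (adjusted p = 0.021) for rESC-RPC1 against P-RPC. For rESC-RPC2 against rESC-RPC1 it had not passed, at -0.02 (adjusted p = 0.84), and with that mean it passed at 0.58 (adjusted p = 1.3e-04). With a replicate block the 2-fold counts were 6, 3 and 2, although same-numbered arrays correlated at -0.04 to 0.27, over 0.1 in 1 of 9 pairs, so the numbers were not taken to pair arrays. Fewer genes passing the filter accounts for the lower counts with all 9 arrays; the other causes were not tested. Probe sets near the threshold limit Cox4i2, Cox20 and Ndufaf1. Signals close above it in the dimmer group also limit the folds of Cox6b2 and Ppargc1a. Over the single genes chosen by rule, 58 results passed the test, and 20 of these lost it under at least 1 alternative (87 of 1132 alternatives). Genes named after their values were seen were not recomputed one by one under the alternatives.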
